A study of Homo sapiens with 12 samples.

Results

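The primary cilium is a single antenna of microtubules that most resting kidney epithelial cells carry, and 43 genes that build it, load it or close its base were followed here. They were chosen by name from the 38021 gene names of the count table: 10 genes of the BBSome and its helpers, 6 of intraflagellar transport (IFT) complex A, 10 of IFT complex B, 5 of the ciliary motors, 8 of the ciliary base and 4 of ciliary channels and signalling. RNA had been sequenced from 786O cells, an established line of clear cell renal cell carcinoma that lacks functional VHL, and from WT8 cells, which are 786O cells made to express wildtype VHL. Both lines received lentiviral shRNA and puromycin, either a scrambled control (shControl) or an shRNA against BMAL1 (shBMAL1), so 786O shControl, 786O shBMAL1, WT8 shControl and WT8 shBMAL1 each had 3 biological replicates. The comparisons ask how the RNA of these genes changed when BMAL1 was depleted with and without VHL. The labels give the shControl cells of both lines the genotype WT and the other cells BMAL1 knockdown. Both lines go back to 1 tumour, the controls carry an shRNA as well, and neither the number of BMAL1 constructs nor whether WT8 is a single clone is given in the labels.

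The cilium makes no protein of its own. IFT-B particles ride outward on kinesin-2, IFT-A particles return on dynein-2, and the BBSome uses these trains to carry membrane proteins, Hedgehog receptors among them, across a gate of transition zone proteins. VHL is known to help renal cells keep their cilia, and cilia are taken apart when cells enter the division cycle. BMAL1 is the clock factor that binds the E-box CACGTG together with CLOCK, and the HIF factors that VHL removes bind related sites. These libraries measure RNA in whole cultures. Fewer ciliated cells and less RNA per cell cannot be told apart, and cilia were not counted here.

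Libraries held 33182025 to 36477509 counts, and the 43 genes together took 0.112% to 0.141% of them. Mean counts ran from 26.5 for BBS5 to 5782 for KIF3B, so the precision of BBS5 is far lower than that of the others. Values below are in CPM, counts scaled to equal library totals and by TMM factors, in the order of replicates 1 to 3. All 43 genes passed the filter on low counts, and 16838 genes were tested with the quasi-likelihood test of edgeR. A gene is called when its Benjamini-Hochberg adjusted p over all genes is under 0.1. BBS5 had 0 counts in every WT8 library, so counts and medians below cover the other 42 genes and BBS5 is given apart. As a check of the labels, BMAL1 (listed as ARNTL) was at 12.1 ± 1.37 CPM (SD, n = 3) in 786O shControl and 3.94 ± 0.22 in 786O shBMAL1, and in WT8 at 9.24 ± 0.96 with shControl and 1.66 ± 0.24 with shBMAL1. VHL was at 18.8 ± 1.6 and 19.4 ± 1.6 CPM in the 786O groups and at 981 ± 57 and 647 ± 15 in the WT8 groups. Of 10 renal markers listed, all but CA9 were detected in all 12 libraries, the renal factor PAX8 among them. CA9 was at 0 in every WT8 library, and NDUFA4L2 was at only 0.1751 to 1.631 CPM. Of the leukocyte markers listed, PTPRC and CD3E had at most 1 count in any library, but CD68 was at 17.3 to 42.98 CPM.

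The promoters of 6 genes on which the results turn are printed here so that the text beside each gene can be read with its sequence. They come from RefSeq on GRCh38.p14, which held promoters for 39 of the 43 genes, and run from 250 bases before the annotated start to 30 bases after it, 5′ to 3′ along the gene. Capitals mark 3 motifs searched on both strands: the E-box CACGTG, the HIF core ACGTG or GCGTG (which the E-box contains), and the half-site GTTGCC or GTTGCT of RFX factors, the family known for switching on ciliary genes. BBS1 lies at chr11:66510385-66510664, plus strand. IFT140 lies at chr16:1612043-1612322, minus strand. WDR19 lies at chr4:39182279-39182558, plus strand. KIF3A lies at chr5:132737517-132737796, minus strand. IFT81, the member with an E-box, lies at chr12:110124107-110124386, plus strand. IFT88, the member that was higher with shBMAL1 in both lines, lies at chr13:20566907-20567186, plus strand.
BBS1: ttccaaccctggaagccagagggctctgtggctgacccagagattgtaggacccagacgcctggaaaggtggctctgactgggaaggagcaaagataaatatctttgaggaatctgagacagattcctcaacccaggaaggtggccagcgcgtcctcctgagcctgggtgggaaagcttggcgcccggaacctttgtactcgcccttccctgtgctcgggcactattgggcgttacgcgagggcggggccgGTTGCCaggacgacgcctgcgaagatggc
IFT140: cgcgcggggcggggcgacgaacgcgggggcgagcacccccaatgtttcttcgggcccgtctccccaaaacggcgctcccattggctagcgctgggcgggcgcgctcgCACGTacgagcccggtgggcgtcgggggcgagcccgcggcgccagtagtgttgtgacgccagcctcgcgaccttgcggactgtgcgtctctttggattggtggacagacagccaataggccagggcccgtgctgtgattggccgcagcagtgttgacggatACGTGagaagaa
WDR19: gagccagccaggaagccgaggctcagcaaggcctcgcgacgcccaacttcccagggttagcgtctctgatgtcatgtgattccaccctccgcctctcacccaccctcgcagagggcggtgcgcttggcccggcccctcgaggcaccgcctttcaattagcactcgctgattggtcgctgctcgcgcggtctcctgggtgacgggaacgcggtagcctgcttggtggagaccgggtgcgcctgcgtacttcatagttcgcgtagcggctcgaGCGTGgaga
KIF3A: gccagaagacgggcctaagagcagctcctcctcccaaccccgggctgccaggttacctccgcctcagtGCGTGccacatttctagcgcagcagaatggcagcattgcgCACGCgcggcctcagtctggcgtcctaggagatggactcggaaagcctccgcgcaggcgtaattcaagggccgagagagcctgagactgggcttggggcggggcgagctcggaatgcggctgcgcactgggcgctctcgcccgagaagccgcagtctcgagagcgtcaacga
IFT81: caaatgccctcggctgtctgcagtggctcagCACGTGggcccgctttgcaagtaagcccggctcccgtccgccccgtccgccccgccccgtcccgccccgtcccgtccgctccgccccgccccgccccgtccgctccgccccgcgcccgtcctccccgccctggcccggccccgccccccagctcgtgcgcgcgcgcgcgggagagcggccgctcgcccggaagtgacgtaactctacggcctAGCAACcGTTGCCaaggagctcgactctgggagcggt
IFT88: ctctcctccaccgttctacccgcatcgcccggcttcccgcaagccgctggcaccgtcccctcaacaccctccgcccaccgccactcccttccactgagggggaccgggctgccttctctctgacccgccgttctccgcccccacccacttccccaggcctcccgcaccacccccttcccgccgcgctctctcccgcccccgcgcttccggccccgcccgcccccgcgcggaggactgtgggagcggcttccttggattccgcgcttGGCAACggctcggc

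Over the whole 300-base window (250 before and 50 after the start), the RFX half-site occurred in 21 of 39 members (53.8%) and in 27.1% of 27305 genes. The HIF core occurred in 29 of 39 members (74.4%) against 52.4% of genes. The E-box occurred in 1 of 39 (2.56%), IFT81, against 8.77% of genes. IFT81 also holds a pair of RFX half-sites on opposite strands with 1 base between them, at its start. The promoters of BBS1 and IFT88 each hold 1 half-site that begins at most 16 bases after the start, and those of IFT140, WDR19 and KIF3A hold HIF cores and no half-site. BBS2 holds none of the 3 motifs in this window. A match of letters is a description of the sequence, and binding was not measured in these data.

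With shBMAL1 the cilium genes were lower more often than higher in both lines. In 786O cells 21 of 42 members fell and 7 rose, where 24.4% of all genes tested fell and 24.5% rose. In WT8 cells 25 of 42 fell and 6 rose, where 36.9% of all genes fell and 32.9% rose. The median log2 change of the members was -0.18 in 786O and -0.33 in WT8, beside medians of 0.00 and -0.04 over all genes tested. These were mostly small changes: 3 of 42 members fell by more than 1.5-fold in 786O, beside 7.62% of all genes, and 11 did in WT8, beside 21.6% of all genes, so these shares lay near the background. None rose by that much, where 6.68% and 14.2% of all genes did. Without 786O shControl replicate 2, or without 786O shBMAL1 replicate 1, 4 members rather than 7 rose in 786O. The falls there also depended on single libraries: 15 to 21 members fell in the fits without 1 library. The 2 comparisons share no library. There were 14 members lower in both (33.3% of the 42, beside 13.6% of all genes), 1 higher in both (IFT88, beside 12.4% of all genes) and 4 that moved in opposite directions (9.52%, beside 12.1% of all genes). A further 9 (21.4%, beside 10.8% of all genes) were called in 786O and not in WT8, and 12 (28.6%, beside 31.7%) in WT8 and not in 786O. IFT27 and TCTN2 were called in neither (4.76%, beside 19.4%). Among the called members the shControl and shBMAL1 libraries overlapped for DYNC2H1, KIF7, BBS9, TTC8, TCTN3 and PKD2 in 786O and for IFT57, IFT74 and TTC21B in WT8.

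**Figure D1:**
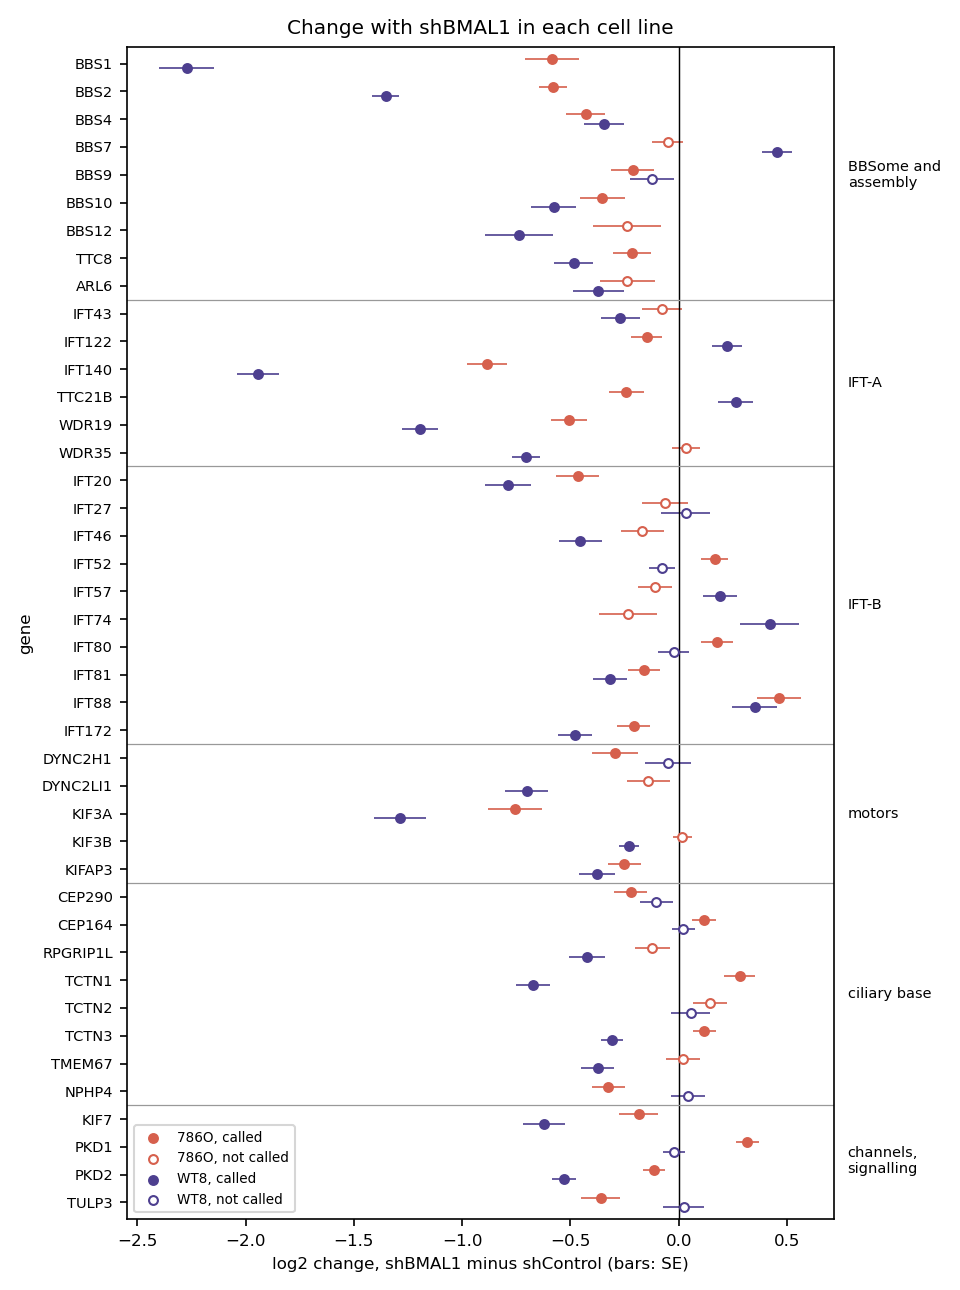
Log2 change with shBMAL1 (horizontal axis, shBMAL1 minus shControl) of 42 cilium genes in 786O and WT8 cells, with bars of 1 SE; filled points passed an adjusted p of 0.1 in edgeR and BBS5 is left out. BBS1 and IFT140 lie farthest to the left in WT8, at -2.27 and -1.94.

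Among the genes of the BBSome, the coat that carries membrane proteins along the cilium, 6 of 9 fell and 0 rose in 786O cells, and 7 of 9 fell and 1 rose in WT8. The shares that fell were 66.7% and 77.8%, beside 24.4% and 36.9% of all genes tested. BBS1 was at 10.1, 8.52 and 8.36 CPM in 786O shControl, 5.77, 4.92 and 7.27 in 786O shBMAL1, 17.5, 16.9 and 17 in WT8 shControl, and 3.22, 3.26 and 4.17 in WT8 shBMAL1. The groups did not overlap: WT8 shControl was the highest of the 4 groups and WT8 shBMAL1 the lowest. BBS1 binds the GTPase ARL6, which recruits the coat to membranes. Its log2 change was -0.59 (SE 0.12, adjusted p = 0.000217) in 786O and -2.27 (SE 0.13, adjusted p = 1.03e-17) in WT8. BBS2, part of the BBSome core, was at 35.8, 33.1 and 35.9 CPM in 786O shControl, 23.7, 22.3 and 24.2 in 786O shBMAL1, 71.8, 67.3 and 66.3 in WT8 shControl, and 27.0, 26.2 and 27.2 in WT8 shBMAL1. Every shBMAL1 library lay below every shControl library. BBS2 fell by 0.58 (SE 0.06) and 1.35 (SE 0.06) on the log2 scale.

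BBS4 (-0.43 and -0.34), the chaperonin-like assembly factor BBS10 (-0.35 and -0.58) and the coat subunit TTC8 (-0.22 and -0.48) were lower in both lines. ARL6 (-0.37) and the assembly factor BBS12 (-0.74) fell in WT8 and were not called in 786O, where their log2 changes were both -0.24. BBS9 fell in 786O (-0.21, adjusted p = 0.0814) and was not called in WT8 (-0.12). The 786O call was lost in 3 of 12 fits without 1 library, and DESeq2 did not make it (adjusted p = 0.146). BBS7 went the other way. It was at 29.0, 27.9 and 31.4 CPM in 786O shControl, 30.01, 27.3 and 27.9 in 786O shBMAL1, 23.4, 23.0 and 23.7 in WT8 shControl, and 30.6, 31.6 and 33.8 in WT8 shBMAL1. WT8 shControl stood below the other 3 groups. BBS7 rose by 0.45 (SE 0.07, adjusted p = 7.98e-07) in WT8 and differed by -0.05 (95% interval -0.19 to 0.09) in 786O.

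BBS5, the BBSome subunit that binds membrane lipids, had 48, 72 and 79 counts in 786O shControl, 52, 50 and 17 in 786O shBMAL1, and 0 in all 6 WT8 libraries. It was at least 22.8-fold lower in WT8 shControl than in 786O shControl and at least 14.2-fold lower in WT8 shBMAL1 than in 786O shBMAL1, when 3 counts per library are taken as the floor. In 786O its log2 change with shBMAL1 was -0.74 (adjusted p = 0.0932), and the groups overlapped. Without 786O shBMAL1 replicate 3, the library at 17 counts, the log2 change was -0.38 (adjusted p = 0.431).

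**Figure D2:**
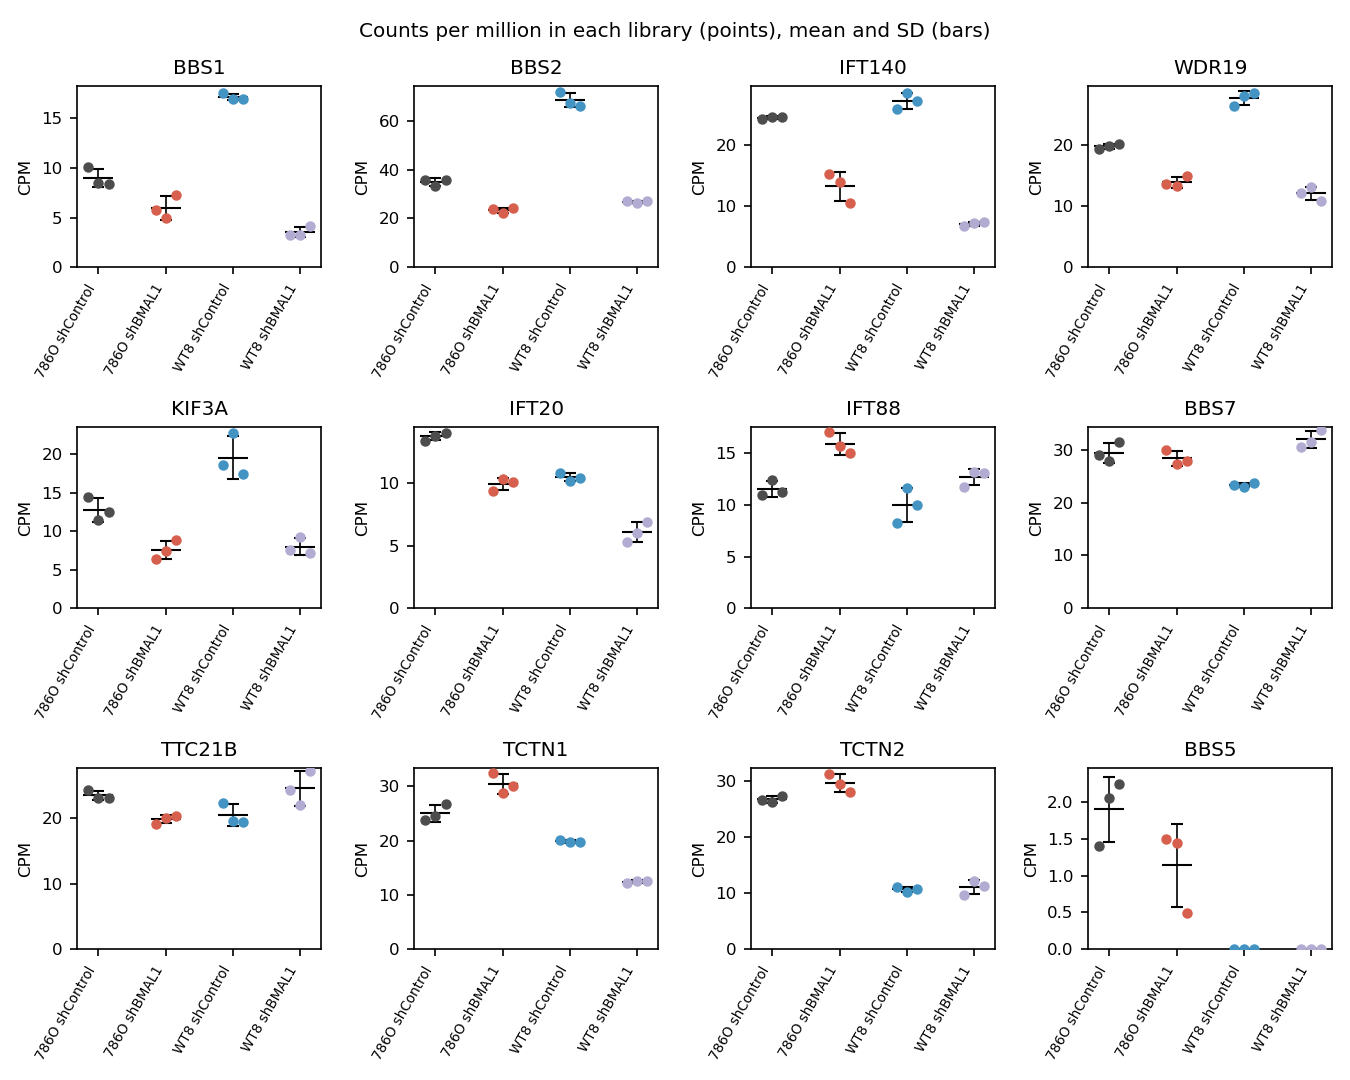
CPM of 12 cilium genes in each library (points), with the mean and SD of the 3 replicates of each group (bars); each axis starts at 0. BBS1, BBS2, IFT140, WDR19 and KIF3A fall with shBMAL1 in both lines, IFT88 rises, and BBS5 is at 0 in WT8.

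IFT-A, the complex that returns cargo to the cell body and admits membrane receptors, split with shBMAL1. In 786O 4 of 6 genes fell (66.7%, beside 24.4% of all genes tested) and 0 rose. In WT8 4 of 6 fell (66.7%, beside 36.9%) and 2 rose (33.3%, beside 32.9%). IFT140, a core subunit, was at 24.1, 24.6 and 24.5 CPM in 786O shControl, 15.1, 13.9 and 10.5 in 786O shBMAL1, 25.8, 28.4 and 27.2 in WT8 shControl, and 6.67, 7.14 and 7.36 in WT8 shBMAL1. The shControl libraries of both lines lay close together, and WT8 shBMAL1 lay below all others. The log2 change was -0.89 (SE 0.09, adjusted p = 8.03e-10) in 786O and -1.94 (SE 0.10, adjusted p = 6.47e-19) in WT8. WDR19, its partner in the core, was at 19.3, 19.8 and 20.1 CPM in 786O shControl, 13.6, 13.2 and 14.9 in 786O shBMAL1, 26.3, 28.0 and 28.4 in WT8 shControl, and 12.1, 13.1 and 10.9 in WT8 shBMAL1. It fell by 0.51 (SE 0.08) and 1.20 (SE 0.08) on the log2 scale. WDR35 fell by 0.71 in WT8 and was not called in 786O (0.03), and IFT43 fell by 0.27 in WT8 and was not called in 786O (-0.08).

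IFT122 and TTC21B, the other two IFT-A genes, moved in opposite directions in the 2 lines. TTC21B was at 24.4, 23.1 and 23.2 CPM in 786O shControl, 19.2, 20.0 and 20.4 in 786O shBMAL1, 22.4, 19.6 and 19.5 in WT8 shControl, and 24.4, 22.1 and 27.3 in WT8 shBMAL1. The 786O groups did not overlap, and in WT8 the lowest shBMAL1 library lay just under the highest shControl library. Its log2 changes were -0.24 (SE 0.08) and 0.26 (SE 0.08). IFT122 was at 27.1, 26.4 and 25.2 CPM in 786O shControl, 23.0, 22.8 and 25.2 in 786O shBMAL1, 29.7, 28.3 and 31.3 in WT8 shControl, and 34.7, 33.1 and 36.4 in WT8 shBMAL1. It was called lower in 786O (-0.15, adjusted p = 0.095) and higher in WT8 (0.22, adjusted p = 0.00535), and 4 of the 12 fits that leave out 1 library lost the 786O call. DESeq2 also did not call it in 786O (adjusted p = 0.137).

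IFT-B, the larger complex that carries tubulin and other cargo to the tip, had no common direction. In 786O 3 of 10 genes rose and 3 fell, beside 24.5% and 24.4% of all genes tested. In WT8 3 rose and 4 fell, beside 32.9% and 36.9%. These shares lay near those of all genes. IFT88, an IFT-B core subunit whose loss leaves kidney cells without cilia, was at 10.9, 12.4 and 11.3 CPM in 786O shControl, 17.1, 15.7 and 15.0 in 786O shBMAL1, 8.26, 11.6 and 10.0 in WT8 shControl, and 11.8, 13.2 and 13.1 in WT8 shBMAL1. It was higher with shBMAL1 in both lines, without overlap, by 0.47 (SE 0.10, adjusted p = 0.000307) and 0.35 (SE 0.10, adjusted p = 0.00364). IFT20, which also works at the Golgi, was at 13.4, 13.8 and 14 CPM in 786O shControl, 9.39, 10.4 and 10.1 in 786O shBMAL1, 10.8, 10.2 and 10.4 in WT8 shControl, and 5.29, 6.02 and 6.91 in WT8 shBMAL1. It fell by 0.47 and 0.79 on the log2 scale. IFT81, which binds tubulin together with IFT74, was at 25.1, 26.7 and 27.4 CPM in 786O shControl, 23.9, 24.6 and 22.5 in 786O shBMAL1, 16.6, 17.7 and 16.6 in WT8 shControl, and 13.7, 14 and 13.1 in WT8 shBMAL1. The line separated the libraries more than the shRNA did. Its changes with shBMAL1 were -0.16 (adjusted p = 0.0855) and -0.32, and the first was lost in 4 of 12 fits without 1 library.

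IFT74 was at 6.36, 6.95 and 7.17 CPM in 786O shControl, 5.66, 6.42 and 5.34 in 786O shBMAL1, 3.94, 5.05 and 4.38 in WT8 shControl, and 5.00, 6.12 and 6.75 in WT8 shBMAL1. In WT8 it rose by 0.42 (SE 0.14, adjusted p = 0.00744) although 1 shBMAL1 library lay inside the shControl range, and in 786O its -0.23 was not called. IFT80 was at 24.9, 24.9 and 23.1 CPM in 786O shControl, 30.01, 26.0 and 26.5 in 786O shBMAL1, 32.1, 30.1 and 35.4 in WT8 shControl, and 31.3, 32.9 and 31.9 in WT8 shBMAL1. It rose by 0.18 in 786O (adjusted p = 0.0526). Without 786O shControl replicate 3 or without 786O shBMAL1 replicate 1 that call was lost. IFT52, a core subunit, rose by 0.17 in 786O, IFT57 rose by 0.19 in WT8, and IFT172 fell in both lines (-0.21 and -0.48). IFT46 fell in WT8 (-0.45). IFT27, the small GTPase of the complex, gave -0.06 (95% interval -0.28 to 0.15) and 0.03 (95% interval -0.19 to 0.25).

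All called motor genes fell: 3 of 5 in 786O, beside 24.4% of all genes tested, and 4 of 5 in WT8, beside 36.9%. KIF3A, a motor subunit of kinesin-2, was at 14.5, 11.4 and 12.4 CPM in 786O shControl, 6.4, 7.48 and 8.82 in 786O shBMAL1, 18.6, 22.7 and 17.4 in WT8 shControl, and 7.58, 9.30 and 7.17 in WT8 shBMAL1. The shBMAL1 libraries of both lines covered overlapping ranges, below all shControl libraries. KIF3A fell by 0.75 (SE 0.12, adjusted p = 1.05e-05) and 1.29 (SE 0.12, adjusted p = 8.36e-11) on the log2 scale. Its partner KIF3B, the member with the highest level per kilobase of exon (24.1 CPM per kilobase in 786O shControl), fell by 0.23 in WT8 and was not called in 786O (0.02, 95% interval -0.07 to 0.11). KIFAP3, the adaptor of the same motor, was at 31.0, 31.0 and 32.2 CPM in 786O shControl, 27.1, 26.2 and 25.8 in 786O shBMAL1, 17.4, 15.7 and 16.8 in WT8 shControl, and 14.3, 11.6 and 12.4 in WT8 shBMAL1. The 4 groups were separate and in this order, and KIFAP3 fell by 0.25 and 0.38. The dynein-2 light intermediate chain DYNC2LI1 fell by 0.70 in WT8 (786O -0.14, not called), and the heavy chain DYNC2H1 fell by 0.29 in 786O (WT8 -0.05, not called).

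At the ciliary base, where transition zone proteins gate what enters, 3 of 8 genes rose and 2 fell in 786O. Of all genes tested, 24.5% rose and 24.4% fell there, so the share that fell was near that of all genes. In WT8 0 rose and 4 fell, beside 32.9% and 36.9% of all genes. TCTN1, a tectonic of the transition zone, was at 23.9, 24.5 and 26.7 CPM in 786O shControl, 32.4, 28.8 and 30.1 in 786O shBMAL1, 20.2, 19.8 and 19.7 in WT8 shControl, and 12.2, 12.7 and 12.6 in WT8 shBMAL1. The direction turned with the line, without overlap in either: 0.28 (SE 0.07, adjusted p = 0.00205) in 786O and -0.67 (SE 0.08, adjusted p = 2.31e-09) in WT8. TCTN3 had the same signs at a smaller size, 0.12 (adjusted p = 0.0673, with overlapping groups) and -0.31, and its 786O call was lost in 4 of 12 fits without 1 library. TCTN2 was at 26.5, 26.2 and 27.4 CPM in 786O shControl, 31.2, 29.4 and 28.0 in 786O shBMAL1, 11, 10.1 and 10.8 in WT8 shControl, and 9.68, 12.2 and 11.3 in WT8 shBMAL1. Its changes with shBMAL1 were not called (0.14 and 0.06).

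RPGRIP1L (-0.42) and the Meckel syndrome protein gene TMEM67 (-0.37) fell in WT8 and were not called in 786O (-0.12 and 0.02). CEP290 (-0.22) and NPHP4 (-0.32) fell in 786O and were not called in WT8 (-0.10 and 0.04). CEP164, of the appendages that dock the basal body, rose by 0.12 in 786O (adjusted p = 0.0873), a call that 10 of 12 fits without 1 library lost. Of the channel and signalling genes, the polycystin PKD2 was at 101, 105 and 98.2 CPM in 786O shControl, 93.9, 98.5 and 88.7 in 786O shBMAL1, 66.1, 73.0 and 70.6 in WT8 shControl, and 48.2, 49.7 and 47.2 in WT8 shBMAL1. It fell by 0.11 (adjusted p = 0.0744, overlapping groups) and 0.53 on the log2 scale. The 786O call was lost in 4 of 12 fits without 1 library and with DESeq2 (adjusted p = 0.117). PKD1, its partner, was at 129, 125 and 112 CPM in 786O shControl and at 151, 152 and 154 in 786O shBMAL1, a rise of 0.32 (SE 0.05, adjusted p = 5.81e-06). In WT8 PKD1 held 112, 112 and 121 CPM with shControl and 117, 118 and 104 with shBMAL1 and was not called (-0.02). PKD1 has near-identical pseudogene copies, so its counts are uncertain.

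KIF7, the kinesin that organises the ciliary tip for Hedgehog signalling, was at 26.2, 26.0 and 21.9 CPM in 786O shControl, 20.4, 22.2 and 22.5 in 786O shBMAL1, 14.2, 18.4 and 15.4 in WT8 shControl, and 10.8, 9.55 and 10.8 in WT8 shBMAL1. It fell by 0.62 (SE 0.10) in WT8, and its 786O change of -0.18 (adjusted p = 0.0953, overlapping groups) lost its call in 5 of 12 fits without 1 library. TULP3, which joins IFT-A to membrane receptors, was at 29.8, 26.9 and 30.2 CPM in 786O shControl, 23.5, 22.4 and 21.9 in 786O shBMAL1, 19.0, 24.7 and 17.7 in WT8 shControl, and 21.0, 22.4 and 18.8 in WT8 shBMAL1. It fell by 0.36 (SE 0.09) in 786O and was not called in WT8 (0.02, 95% interval -0.16 to 0.21).

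**Figure D3:**
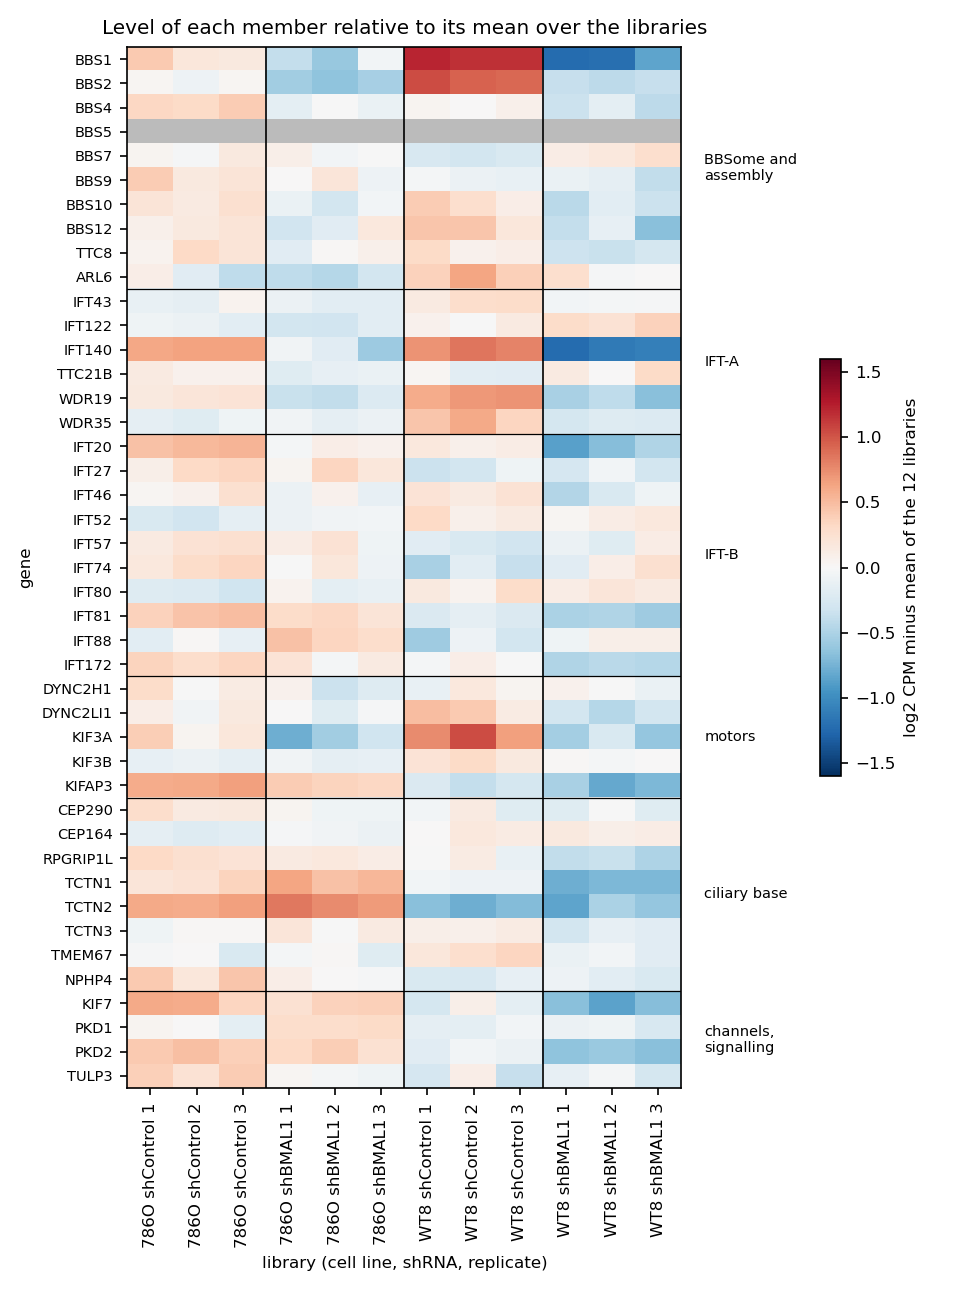
Log2 CPM of each cilium gene minus its mean over the 12 libraries (colour), with genes as rows grouped by role and libraries as columns; BBS5 is grey because it is at 0 in WT8. The columns of WT8 shBMAL1 hold the lowest group mean for 23 of 42 genes (54.8%, beside 25.4% of all genes tested).

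WT8 and 786O cells differed in these genes in both directions. With shControl, 15 of 42 members were higher in WT8 and 20 lower, where 39.3% of all genes were higher and 40.1% lower, so the share of members was near that of all genes. With shBMAL1, 9 were higher in WT8 and 24 lower, where 35.9% and 37.1% of all genes were. These comparisons share no library. There were 7 members higher in WT8 in both (16.7%, beside 25.4% of all genes): IFT52, IFT80, IFT122, KIF3B, BBS2, ARL6 and CEP164. There were 15 lower in both (35.7%, beside 27.7% of all genes), among them 6 of the 10 IFT-B genes. There were 7 whose difference changed sign between the shRNAs (16.7%, beside 8.96% of all genes): TTC21B, WDR19, WDR35, DYNC2LI1, BBS1, BBS7 and TCTN3. Of these calls, those of WDR19, WDR35 and BBS7 with shBMAL1 were lost in 2, 5 and 2 of the 12 fits without 1 library, and that of TCTN3 with shControl in 2.

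The largest difference between the lines among the 42 was that of TCTN2, whose 6 WT8 libraries, at 9.68 to 12.2 CPM, all lay below its 6 786O libraries, at 26.2 to 31.2 CPM. Its log2 difference, WT8 minus 786O, was -1.33 (SE 0.09, adjusted p = 2.83e-16) with shControl and -1.42 (SE 0.08, adjusted p = 4.67e-17) with shBMAL1. KIFAP3 (-0.92 and -1.04), KIF7 (-0.63 and -1.06), IFT81 (-0.64 and -0.80) and PKD2 (-0.54 and -0.95) were also lower in WT8 under both shRNAs. BBS2 was higher in WT8 with shControl by 0.97 (SE 0.06, adjusted p = 2.09e-16) and with shBMAL1 by 0.20 (SE 0.07, adjusted p = 0.00831). BBS1 was higher by 0.93 (SE 0.12) with shControl and lower with shBMAL1 (-0.75, SE 0.14). ARL6 was at 8.66, 7.09 and 6.08 CPM in 786O shControl, 6.06, 5.87 and 6.58 in 786O shBMAL1, 10.4, 12.4 and 10.5 in WT8 shControl, and 9.73, 7.97 and 8.06 in WT8 shBMAL1. It was higher in WT8 under both shRNAs, by 0.61 and 0.48. KIF3A was higher in WT8 with shControl (0.61) and not called with shBMAL1 (0.08).

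**Figure D4:**
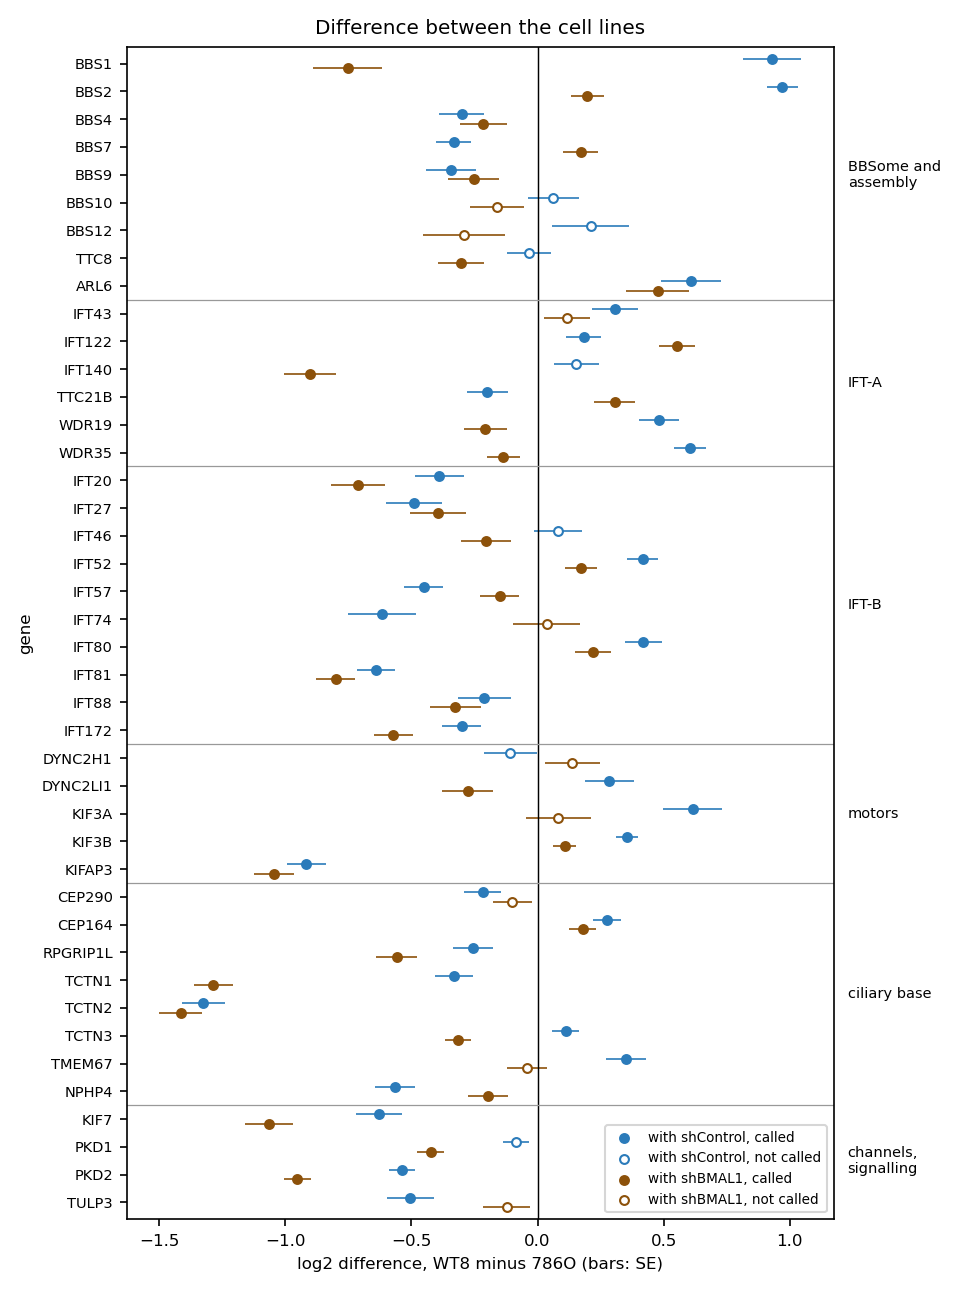
Log2 difference between the lines (horizontal axis, WT8 minus 786O) of 42 cilium genes with shControl and with shBMAL1, with bars of 1 SE; filled points passed an adjusted p of 0.1 in edgeR. TCTN2 is lower in WT8 by 1.33 and 1.42 on the log2 scale, and BBS1 lies to the right with shControl (0.93) and to the left with shBMAL1 (-0.75).

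The interaction compares the 2 lines in their response: the log2 change of WT8 cells with shBMAL1, less the change of 786O cells. It was called for 28 of 42 members, beside 56% of all genes tested. The interaction was negative for 21, beside 28.6% of all genes, and positive for 7, beside 27.4%, with a median of -0.23 over the members and -0.03 over all genes tested. BBS1 (-1.68, SE 0.18, adjusted p = 5.53e-10), IFT140 (-1.06, SE 0.14, adjusted p = 3.68e-08), TCTN1 (-0.95, SE 0.11, adjusted p = 2.14e-09) and BBS2 (-0.77, SE 0.09, adjusted p = 4.07e-09) were the most negative. IFT74 (0.65), TTC21B (0.51), BBS7 (0.50) and TULP3 (0.38) were the most positive. Of the 42 members, 23 (54.8%) had their lowest group mean in WT8 shBMAL1, as did 25.4% of all genes tested. The highest mean was in 786O shControl for 17 members (40.5%, beside 23.3% of all genes) and in WT8 shControl for 16 (38.1%, beside 32.2%). The latter share was near that of all genes.

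**Figure D5:**
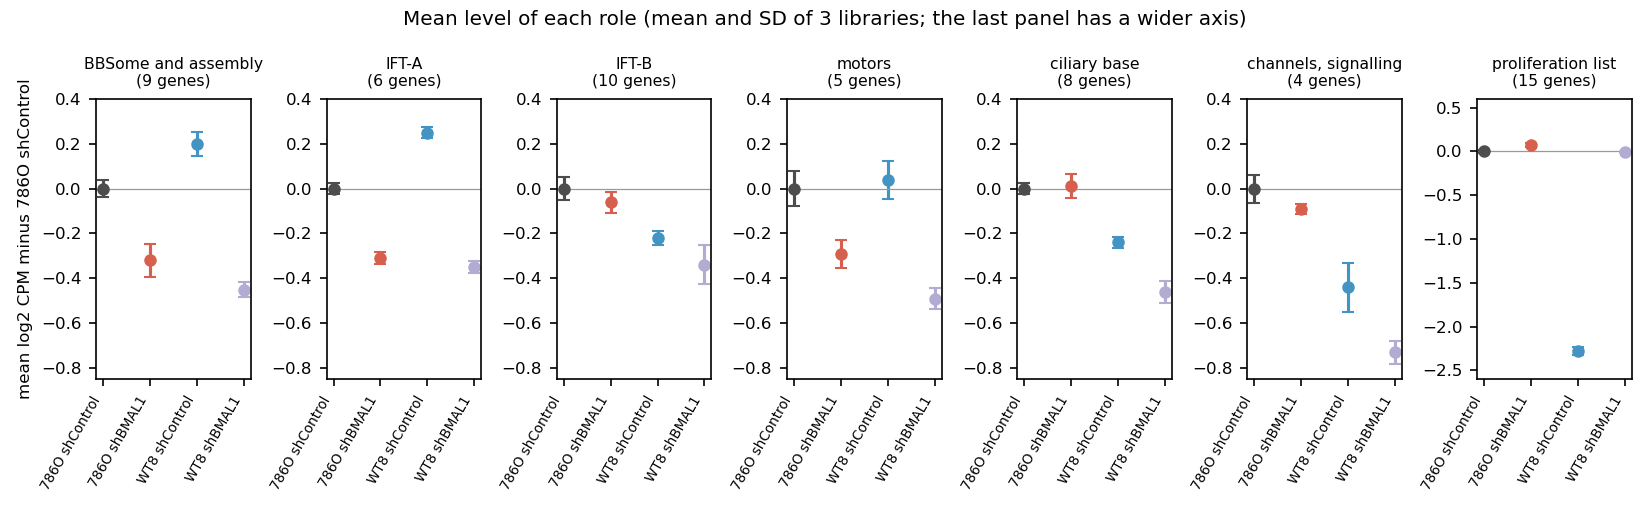
Mean log2 CPM of the genes of each role minus that of 786O shControl (vertical axis), as mean and SD of the 3 libraries of each group; the last panel, with a wider axis, holds 15 proliferation genes. BBSome and IFT-A genes were highest on average in WT8 shControl, and the proliferation genes were lowest there. Motor genes differed by less than the SD between WT8 shControl (4.69, SD 0.085) and 786O shControl (4.65, SD 0.078). IFT-B, ciliary base and channel and signalling genes were lower in WT8 shControl than in 786O shControl.

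Averaged by role, the 9 BBSome genes had a mean log2 CPM of 3.78 ± 0.04 (SD over 3 libraries) in 786O shControl, and 3.46 ± 0.07 in 786O shBMAL1. In WT8 the mean was 3.98 ± 0.05 with shControl and 3.33 ± 0.04 with shBMAL1. The IFT-A genes followed the same pattern, at 4.49 and 4.18 in 786O and at 4.74 and 4.14 in WT8. The IFT-B genes stood at 4.21 and 4.15 in 786O and at 3.99 and 3.87 in WT8. All 42 members together stood at 4.53 and 4.36 in 786O and at 4.47 and 4.09 in WT8. A list of 15 proliferation genes also differed between groups, most of all in WT8. Its summed CPM was 3566 to 3720 in 786O shControl, and 3657 to 3803 in 786O shBMAL1. In WT8 it was 756 to 802 with shControl and 3476 to 3498 with shBMAL1. With shControl all 15 stood lower in WT8 cells than in 786O cells, beside 40.1% of all genes tested. All 15 rose with shBMAL1 in WT8 (median log2 change 2.21), beside 32.9% of all genes. Of 8 genes that take the cilium apart or block it, 5 rose (62.5%, beside 32.9% of all genes) and 3 fell (37.5%, beside 36.9%) with shBMAL1 in WT8. KIF24 rose by 2.41, PLK1 by 2.25, NEK2 by 1.74 and AURKA by 1.45, while NEDD9 fell by 1.61 and the tubulin deacetylase HDAC6 by 0.62. In 786O 2 of the 8 rose (25%, beside 24.5% of all genes), NEDD9 by 0.48 and PLK1 by 0.28. There 3 fell (37.5%, beside 24.4%), among them HDAC6 by 0.56 and KIF2A by 0.47. Of the proliferation genes, 5 rose (33.3%, beside 24.5% of all genes) and 3 fell (20%, beside 24.4%) with shBMAL1 in 786O. The part of these differences in the changes of the cilium genes was not tested.

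Lists of other ciliary genes were counted in the same way. With shBMAL1, 24.4% of all genes tested fell and 24.5% rose in 786O, and 36.9% fell and 32.9% rose in WT8. Of 14 other transport genes, 4 fell (28.6%) and 3 rose (21.4%) with shBMAL1 in 786O, near the shares of all genes. In WT8 10 fell (71.4%) and 3 rose (21.4%). CLUAP1, an IFT-B subunit, fell in both lines (-0.37 and -1.20) and HSPB11, another, rose in both (0.25 and 0.91). Of 15 other transition zone genes, 4 fell (26.7%) and 3 rose (20%) in 786O, also near the shares of all genes. In WT8 4 fell (26.7%) and 7 rose (46.7%), and TMEM231 was lower in both lines (-0.85 and -1.35). Of 9 basal body genes, 6 fell (66.7%) and 2 rose (22.2%) in 786O and 1 fell (11.1%) and 5 rose (55.6%) in WT8, with SCLT1 up by 1.63 there. Of 9 ciliary membrane genes, 5 fell (55.6%) and 2 rose (22.2%) in 786O and 2 fell (22.2%) and 4 rose (44.4%) in WT8.

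Of 12 genes of the Hedgehog pathway, which signals through the cilium, 11 were tested. With shBMAL1 4 fell (36.4%, beside 24.4% of all genes tested) and 2 rose (18.2%, beside 24.5%) in 786O. In WT8 5 fell (45.5%, beside 36.9%) and 3 rose (27.3%, beside 32.9%). The signal transducer SMO was at 53.2, 52.6 and 51.4 CPM in 786O shControl, 33.9, 36.5 and 39.9 in 786O shBMAL1 and 0.544, 0.348 and 0.0544 in WT8 shControl, and no WT8 shBMAL1 library had more than 3 counts. It was at least 459-fold lower in WT8 shBMAL1 than in 786O shBMAL1. GLI1, a target and factor of the pathway, stood at 1.23, 0.343 and 0.853 CPM in 786O shControl, 4.11, 3.89 and 4.59 in WT8 shControl, and fell to 0.664, 0.802 and 0.883 with shBMAL1 there. The factors GLI3 and GLI2 went the other way in WT8, rising by 1.21 and 0.67 on the log2 scale. The receptor gene PTCH1 had a mean of 3.30 CPM in WT8 shControl and 5.06 in WT8 shBMAL1. Of 6 transcription factors of ciliary genes, 5 were tested. With shBMAL1 1 fell (20%, beside 24.4% of all genes tested) and 0 rose in 786O. In WT8 1 fell (20%, beside 36.9%) and 4 rose (80%, beside 32.9%), among them RFX2 (0.74) and RFX3 (0.61). Of 10 genes of motile cilia, 5 passed the filter on low counts.

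Several members share exon sequence with other annotated genes, and whether strand was used in counting is not stated. On the GENCODE annotation of GRCh37, 70.1% of the exon bases of BBS1 (chromosome 11, 66278077 to 66301084) lie in exons of an unnamed gene on the same strand, as do 33.1% of those of IFT80, 31.4% of BBS5 and 10.7% of BBS2. On the opposite strand, IFT20 shares 23.2% with TMEM97, TCTN1 11.5% with HVCN1 and KIF7 11.4% with TICRR. Among the 20 members that share no exon base with another annotated gene, with shBMAL1 7 fell and 3 rose in 786O and 14 fell and 3 rose in WT8. Of all genes tested, 24.4% fell and 24.5% rose in 786O, and 36.9% and 32.9% did in WT8. Of the 20, 5 were lower in both lines, beside 13.6% of all genes: IFT81, WDR19, BBS10, TTC8 and PKD2. WDR19 and BBS10 were so under every alternative but the fold threshold. The 786O calls of IFT81, TTC8 and PKD2 were lost in 4, 2 and 4 of 12 fits without 1 library. The count over 20 members leaves out members with very small overlaps on the opposite strand, such as KIF3A (0.102% of its exon bases) and IFT140 (0.446% with TELO2 and 1.18% with an unnamed gene).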

How the data were processed

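RNA was sequenced from 12 cultures. Per the labels, libraries were stranded mRNA libraries made by BGI. The methods of the study name SeqMan NGen, GRCh37 and ArrayStar for alignment and counting. The submitters' processing notes name STAR, DESeq2 and hg38, and which of these made the table is not settled by either source. The authors deposited estimated counts per gene, not scaled between libraries. The tests had been planned for plain whole counts. A value of 0.028 stood in for 0 and was set to 0, lines of the same name were summed, and values were rounded. Of the members' 516 values, 19 were not whole. A count of 2 was more frequent than a count of 1 (14754 against 11117 values), so mates of a pair may have been counted separately, which would make bounds against 3 counts too high.

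Genes were filtered with filterByExpr, which removed 10100 of 26938 genes with a count, and scaled by TMM (factors 0.948 to 1.04). One model with 4 group means took in all 12 libraries (edgeR 4.0.16 under R 4.3.3, quasi-likelihood with robust dispersion). Adjusted p-values are from this test by Benjamini-Hochberg over 16838 genes unless another tool is named, and genes under 0.1 were called. An SE is the absolute log2 change over the root of its F statistic. The common coefficient of variation was 5.70%. The fit was tested on simulated data. Floors cover counting error only. The labels call the replicates biological and say no more, so p-values measure the spread between these samples, which may in part be technical.

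Members and lists were chosen with earlier results of these data known. Values per library are given for the 4 largest rises and falls among called members with a mean of at least 50 counts in each comparison, for IFT and BBS genes called in opposite directions, and for BMAL1 and VHL. IFT20 and BBS5 were added after their values were seen, and the values of WDR19 and PKD2 are also given outside this rule. Of each other list up to 2 rises and 2 falls could be named, besides genes named for their role. Alternatives were DESeq2 1.42.0 (size factors and Wald test), voom of limma 3.58.1, no filter on low counts, halved counts, a block of replicate numbers, a 1.5-fold and a 0.05 threshold, and leaving out each library. The joint counts and the count without shared exons were added after seeing the data.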

Additional observations from a re-analysis of the deposited data

Results flagged for a closer look

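For 28 of the 42 cilium genes the change with shBMAL1 differed between WT8 and 786O cells by the interaction test of edgeR (adjusted p under 0.1 over all genes). The same test called 56% of all genes tested, so such a difference is not particular to the cilium genes. Values are log2 changes in WT8 minus those in 786O. In the BBSome they were -1.68 for BBS1, -0.77 for BBS2, -0.50 for BBS12, -0.27 for TTC8 and 0.50 for BBS7. In IFT-A they were -1.06 for IFT140, -0.74 for WDR35, -0.69 for WDR19, 0.37 for IFT122 and 0.51 for TTC21B. In IFT-B they were -0.32 for IFT20, -0.29 for IFT46, -0.27 for IFT172, -0.24 for IFT52, 0.30 for IFT57 and 0.65 for IFT74. Among the motors they were -0.56 for DYNC2LI1, -0.53 for KIF3A and -0.25 for KIF3B. At the ciliary base they were -0.95 for TCTN1, -0.43 for TCTN3, -0.39 for TMEM67, -0.30 for RPGRIP1L and 0.37 for NPHP4. Among channels and signalling genes they were -0.44 for KIF7, -0.42 for PKD2, -0.34 for PKD1 and 0.38 for TULP3. The calls of IFT20, IFT46, BBS12 and TTC8 were the least secure, lost in 6, 7, 5 and 7 of the 12 fits that leave out 1 library.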

How the results depend on the processing

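No called change and no median reversed its direction under the alternatives run. Uncalled changes near 0, such as those of IFT27, WDR35, KIF3B and TMEM67 in 786O and of PKD1 and TULP3 in WT8, crossed 0 in some fits without 1 library. Requiring a change of over 1.5-fold left 0 members higher and 3 lower with shBMAL1 in 786O, beside 6.68% and 7.62% of all genes. In WT8 it left 0 and 11, beside 14.2% and 21.6%, and 3 were lower in both lines, beside 4.28%. Between the lines it left 5 and 5 members with shControl, where 4058 and 4254 of the 16838 genes tested passed. With shBMAL1 it left 0 and 9, where 2820 and 3683 did, and for the interaction 1 and 6, where 2183 and 2748 did. At an adjusted p under 0.05, 4 members rose in 786O, and 11 were lower with shBMAL1 in both lines, beside 11.7% of all genes. These thresholds are stricter by construction. Leaving out 1 library at a time gave 4 to 7 members higher and 15 to 21 lower with shBMAL1 in 786O. Medians were -0.196 to -0.146 with shBMAL1 in 786O and -0.343 to -0.298 in WT8. Between the lines they were -0.134 to -0.0773 with shControl and -0.226 to -0.158 with shBMAL1, and -0.261 to -0.2 for the interaction. These fits had 10 to 15 members lower with shBMAL1 in both lines, beside 12.1% to 13.1% of all genes. The DESeq2 Wald test, run without the filter on low counts, gave 11 such members, beside 7.74% of all genes. With voom there were 14, beside 13.4%. IFT20, IFT140, WDR19, KIF3A, KIFAP3, BBS1, BBS2, BBS4 and BBS10 were lower in both lines under all 19 alternatives other than the fold threshold. The 786O calls of IFT81, IFT122, KIF7 and PKD2 were lost under both the DESeq2 size factors and the DESeq2 Wald test, and that of BBS9 under the latter. The 786O calls of these 5 and of IFT52, IFT80, IFT172, DYNC2H1, TTC8, CEP164 and TCTN3, and the WT8 call of IFT57, were lost in at least 1 fit without 1 library.

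Same-numbered libraries of different groups did not deviate together (r of -0.0967 to 0.0851 over 18 pairs, and 3 of 12 libraries correlated best with their own number), so they share a number only. With the replicate number as a block, 20 members fell and 6 rose with shBMAL1 in 786O, 25 and 6 in WT8, and 13 fell in both (beside 13.3% of all genes). KIF7 and CEP164 in 786O and IFT57 between the lines with shBMAL1 moved just past the threshold. Depth limits BBS5, at 17 to 79 counts in 786O libraries.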
